A study of Homo sapiens with 20 samples.

Results

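Wild-type (wt) SUM159PT cells grown as tumorspheres were compared with wt SUM159PT cells that stayed attached but were kept in the same tumorsphere medium. The members were chosen from the labels, by genotype and growth condition, and came to 5 of the 20 mRNA libraries of the series. The tumorspheres (wt 3D, n = 3) were secondary spheres: cells were plated at 10000 to 30000 cells per mL in ultra-low attachment plates, grown for 6 days, trypsinised and replated for another 6 days, which made 2 rounds. The adherent group (wt 2D_Rosens, n = 2) was grown in standard medium to 50% confluency and then in tumorsphere medium to 80% confluency, and is called medium-matched adherent cells here. In both groups the tumorsphere medium was DMEM:F12 with B27, 20 ng/mL human EGF and 20 ng/mL basic FGF, and both groups carried the unedited wt genotype. Adherent wt cells in standard medium (wt 2D, n = 3), which was based on Ham's F12 and held 5% serum, 5 ug/mL insulin and 1 ug/mL hydrocortisone, are given beside them for orientation. The series held 7 groups in all, the other 4 being NNMT-edited pools.

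SUM159PT is an established triple-negative breast cancer line with mesenchymal traits, so every library stems from 1 genetic background. Attachment, the time spent in tumorsphere medium, the trypsin passage and possibly the RNA kit changed together between the groups, and their parts in any difference cannot be told apart. The time that the adherent cells spent in tumorsphere medium, and which of the 2 kits (RNeasy Plus Mini or Micro) their RNA came from, are not given in the sources used here. The labels do not call the replicates separate cultures, and the p-values therefore rest on a spread that may be technical.

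Epithelial and carcinoma cells normally take survival and growth signals from integrins bound to a stiff matrix, and detached cells lose these signals unless they make matrix of their own and bind to one another. Growth in suspension at low density in serum-free medium with EGF and FGF is widely used to enrich cells that can seed a new sphere. Inside a sphere, cells meet gradients of oxygen and nutrients, and they commonly divide less often than cells on plastic.

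The tumorsphere libraries held 31317964, 29824678 and 32016875 counts, and the medium-matched adherent libraries held 27879500 and 26396964. Over 11383 genes with a mean log2 CPM (counts scaled to library size) of at least 2, the median absolute log2 difference was 0.087 between tumorsphere replicates A and B, 0.206 and 0.225 between each of them and replicate C, and 0.068 between the medium-matched adherent replicates. Between libraries of different groups it was 0.525 to 0.557. Tumorsphere replicate C stood apart, with 8.46% of its counts on ribosomal RNA genes against 5.27% to 5.59% in the other 4 libraries. The 10 genes with the most counts took 9.13% to 11.9% of each tumorsphere library and 6.11% and 6.39% of the medium-matched adherent ones. Results that rest on replicate C are given with and without it.

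The cell line's markers were checked in both groups. VIM, the intermediate filament vimentin, lay at 3923 to 5526 CPM in tumorspheres and at 3911 and 4292 CPM in medium-matched adherent cells, and CD44, EGFR, CAV1 and AXL were all above 100 CPM in each of the 5 libraries. ESR1, PGR and EPCAM lay at 0.349 CPM or below in all 5, whereas ERBB2 reached 65.3 to 98.7 CPM in tumorspheres and 64.6 and 67.7 CPM in medium-matched adherent cells. Markers of leukocytes (8 genes) summed to 19.2 to 22.2 CPM in tumorspheres and 99.5 to 112 CPM in medium-matched adherent cells, most of it CD68, with CD3E at 0 in tumorspheres and LYZ at 0 in medium-matched adherent cells. CD68 shares 81.7% of its exonic bases with another gene on the same strand. Of the 5 leukocyte markers tested, 2 rose and 1 fell: CD68 fell, PTPRC rose 8.08-fold to 1.74, 2.08 and 2.23 CPM in tumorspheres, against 0.294 and 0.196 CPM in medium-matched adherent cells, and ITGAM, with 2 counts in medium-matched adherent cells, lay at 0.202 to 0.836 CPM in tumorspheres (ratio 15.1, counting interval 4.17 to 124). Markers of endothelium (6 genes) summed to 50.6 to 73.3 CPM in tumorspheres and 10.4 and 10.5 CPM in medium-matched adherent cells, most of it PECAM1, with TEK and CLDN5 at 0 in tumorspheres and CLDN5 at 0 in medium-matched adherent cells. Of the 4 endothelial markers tested, 1 rose and 2 fell: PECAM1 rose 6.82-fold, TEK was at least 7.89-fold lower in tumorspheres, and KDR had 2 counts in tumorspheres against 1.25 and 1.41 CPM in medium-matched adherent cells. The part of such cells in any result was not tested. In bulk RNA of this kind, fewer cells of a state and less RNA per cell cannot be told apart.

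Most of the expressed genome differed between the groups. Of 16323 genes tested with edgeR's quasi-likelihood test, 62.8% passed an adjusted p (Benjamini-Hochberg) under 0.05, 32.8% higher and 30.0% lower in tumorspheres. This share is the background against which every count of list members has to be read. The large fitted changes were not evenly split. Of the genes that passed, 738 were fitted as at least 16-fold higher in tumorspheres and 113 as at least 16-fold lower. Both numbers include genes with few or no counts in a group, whose fitted fold change is not a measured size. How many of the 738 and 113 are such genes was not counted, so the split is not read as a difference in measured sizes. The median log2 fold change over all genes tested was 0.05, so the contrast was centred close to no change.

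**Figure D1:**
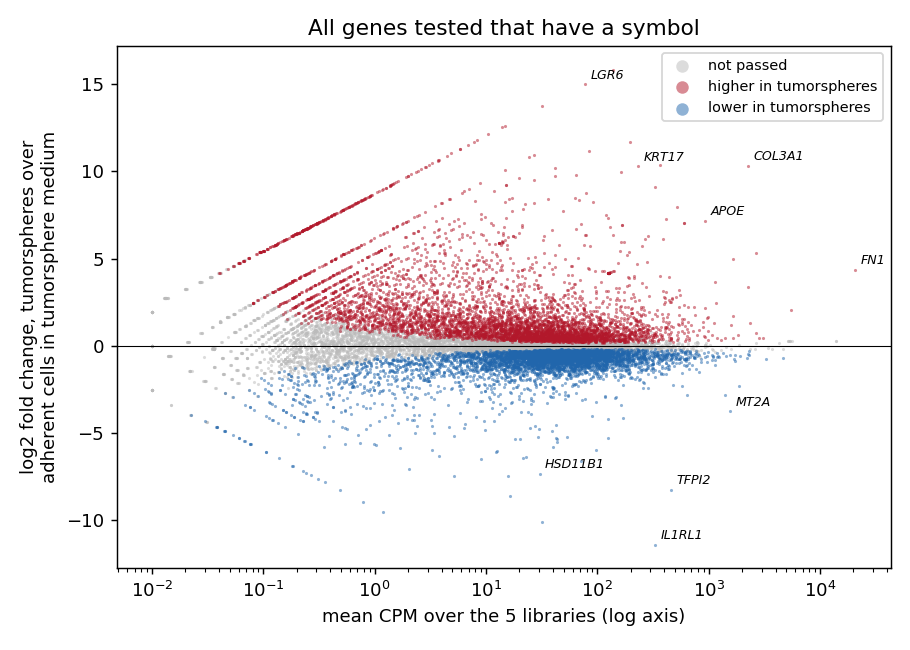
Log2 fold change of tumorspheres over medium-matched adherent cells (y axis) against the mean CPM over the 5 libraries (x axis, log scale), 1 point per tested gene with a symbol, red where higher, blue where lower and grey where the test was not passed. The 738 genes at least 16-fold higher spread over the whole range of expression; the straight streaks at low CPM are genes with few or no counts in 1 group, whose fitted fold change is not a measured size.

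The genes that rose most coded for secreted, matrix or surface proteins in most cases. PADI4, a peptidylarginine deiminase (chromosome 1, 17308197 to 17364004, RefSeq GRCh38.p14), was at 300, 292 and 96.4 CPM in tumorspheres and at 0 in both medium-matched adherent libraries, which makes it at least 4031-fold higher against a floor of 3 counts over the group. LGR6, a receptor for R-spondins, which enhance Wnt signalling (chromosome 1, 202193799 to 202319761), was at 125, 119 and 146 CPM in tumorspheres and again at 0 in both medium-matched adherent libraries, at least 2281-fold higher. Neither gene had more than 0.118 CPM in standard-medium cells, so these transcripts were next to absent in both forms of adherent culture.

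Matrix genes made up a large share of the rest. COL3A1, the chain of type III collagen, was at 2443, 2353 and 6431 CPM in tumorspheres and at 3.78 and 1.96 CPM in medium-matched adherent cells (log2 fold change 10.34 ± 1.16 SE, adjusted p = 6.5e-07), and 9.70 without tumorsphere replicate C. POSTN, periostin, which binds collagen and integrins, was at 686, 696 and 434 CPM in tumorspheres and at 0.551 and 0.354 CPM in medium-matched adherent cells. BGN, the small proteoglycan biglycan, was at 277, 268 and 431 CPM in tumorspheres and at 0.0367 and 0.157 CPM in medium-matched adherent cells. The groups lay far apart for all 3 genes, though the size for BGN (log2 11.68 ± 0.55) moved to 10.98 without medium-matched adherent replicate A and to 12.98 without replicate B, where the adherent libraries held few counts of it. ELN, elastin, had 53.8, 44.1 and 112 CPM in tumorspheres against 3 counts in all in medium-matched adherent cells, a ratio of 1229 with a 95% counting interval of 420 to 5958, and its log2 fold change of 10.17 became 14.14 without medium-matched adherent replicate A and 9.27 without replicate B.

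Epithelial products rose as well. KRT17, a keratin of basal epithelium, was at 380, 312 and 473 CPM in tumorspheres, 0.257 and 0.354 CPM in medium-matched adherent cells, and 1.68, 1.97 and 1.73 CPM in standard-medium cells. MUC5AC, a secreted gel-forming mucin, was at 379, 336 and 93.2 CPM in tumorspheres and at 0.184 and 0.354 CPM in medium-matched adherent cells. Replicate C was the lowest tumorsphere library for MUC5AC and for PADI4, yet remained far above every adherent library. CLCA2, a membrane protein linked to chloride conductance, had 116 to 159 CPM in tumorspheres against 3 counts in all in medium-matched adherent cells, a ratio of 2465 (95% counting interval 844 to 11954), and its log2 fold change of 11.17 became 11.76 without medium-matched adherent replicate B. TMEM119 (log2 fold change 9.82 ± 0.41), OLFML3 (9.76 ± 1.35) and MAMDC2 (3 adherent counts, ratio 783 with a 95% counting interval of 268 to 3795) complete the 12 largest rises.

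IL1RL1, the receptor of interleukin 33 (chromosome 2, 102311563 to 102352356), was at 0.517, 0.101 and 0.279 CPM in tumorspheres and at 780 and 879 CPM in medium-matched adherent cells, a log2 fold change of -11.41 ± 0.56, which became -12.07 without tumorsphere replicate A. TFPI2, a Kunitz-type inhibitor of serine proteases, was at 2.75, 2.82 and 5.58 CPM in tumorspheres and at 1086 and 1187 CPM in medium-matched adherent cells. Standard-medium cells had 2.05 to 3.17 CPM of TFPI2, so of these 3 wt groups the medium-matched adherent one was high. GALNT15, an enzyme of mucin-type O-glycosylation, was at 0.904, 1.14 and 3.42 CPM in tumorspheres and at 163 and 186 CPM in medium-matched adherent cells (-6.59 ± 0.62, and -7.40 without tumorsphere replicate C).

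AOX1 and MAOA, which oxidise aldehydes and heterocycles and monoamines, fell together. AOX1 was at 4.39, 4.43 and 2.09 CPM in tumorspheres, 221 and 251 CPM in medium-matched adherent cells, and 261, 239 and 272 CPM in standard-medium cells, so the spheres lay far below both adherent cultures, which differed by less than the test could call (log2 -0.13, adjusted p = 0.67). MAOA was at 1.62, 1.48 and 3.69 CPM in tumorspheres, 97.7 and 112 CPM in medium-matched adherent cells, and 54.8, 47.6 and 32.4 CPM in standard-medium cells. EPB41L3, a protein of the membrane skeleton (-5.31 ± 0.20), SAMSN1, a signalling adaptor (-5.81 ± 0.21), and DNER, a Notch-binding surface protein (-5.32 ± 0.31), fell by similar sizes. All 3 tumorsphere libraries lay below both medium-matched adherent libraries in these genes, which was a condition of their choice. The remaining 4 of the 12 largest falls were serpins, a chemokine and a serum amyloid: SERPINB4 (-6.39 ± 0.64), SERPINA3 (-5.38 ± 0.36), CCL20 (-5.36 ± 0.21) and SAA2 (-5.34 ± 0.34). SERPINB4 and SAA2 each have a near-identical copy, and SERPINA3 shares 31.8% of its exonic bases with another gene on the same strand, so reads of these genes may be split or shared in the counting.

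**Figure D2:**
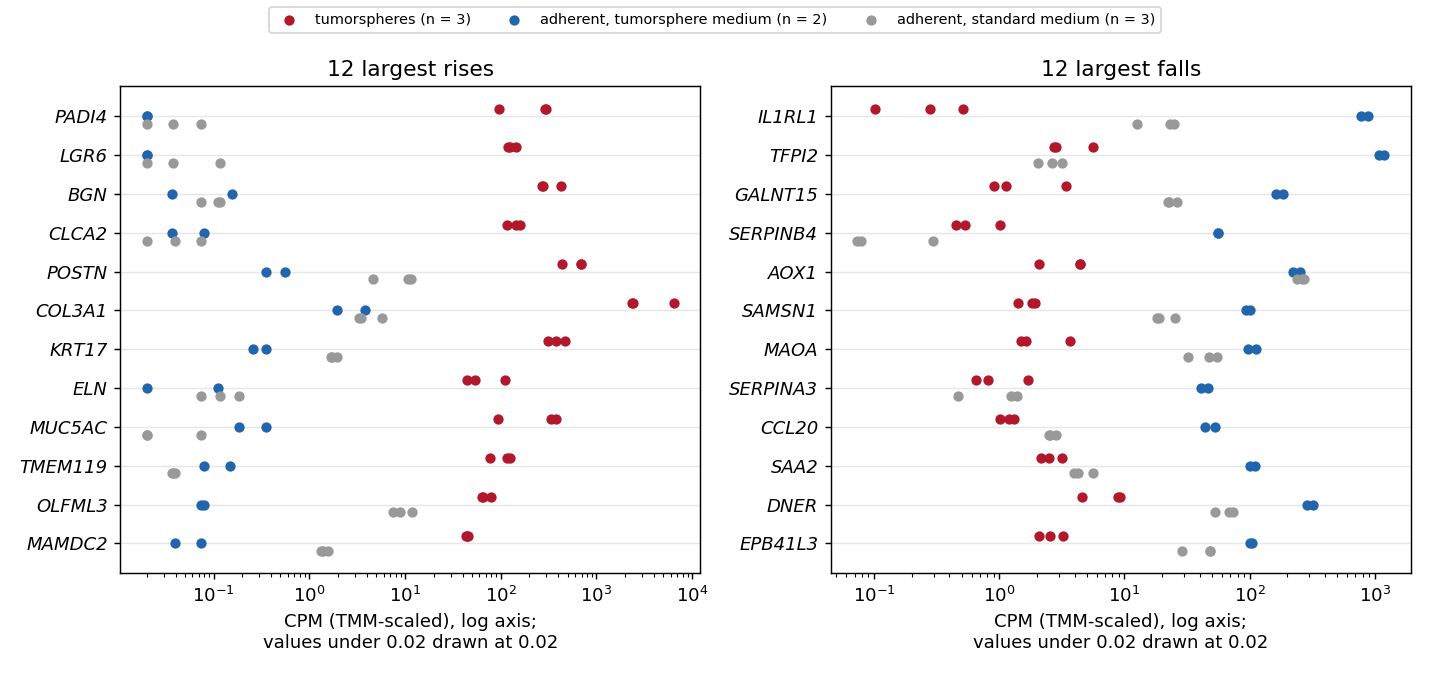
CPM (x axis, log scale, TMM-scaled) of the 12 largest rises (left) and the 12 largest falls (right), 1 point per library, in tumorspheres (red), medium-matched adherent cells (blue) and standard-medium adherent cells (grey). Red and blue points do not overlap for any of the genes, a condition of their choice; the grey points lie near the blue ones for AOX1 and near the red ones for TFPI2, which had 2.05 to 3.17 CPM in standard-medium cells.

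Gene lists were read by how many of their tested members rose or fell. Basal keratins and myoepithelial markers, collagen chains, interferon-stimulated genes, lysosome genes and matrix glycoproteins had the largest shares of members that rose, 75.8% to 86.7% against 32.8% over all genes. DNA replication genes, respiratory chain subunits and mitosis genes had the largest shares that fell, 92.5% to 95.1% against 30.0% over all genes. These lists were picked with results of these libraries known, and their counts describe them without a test of the list.

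**Figure D3:**
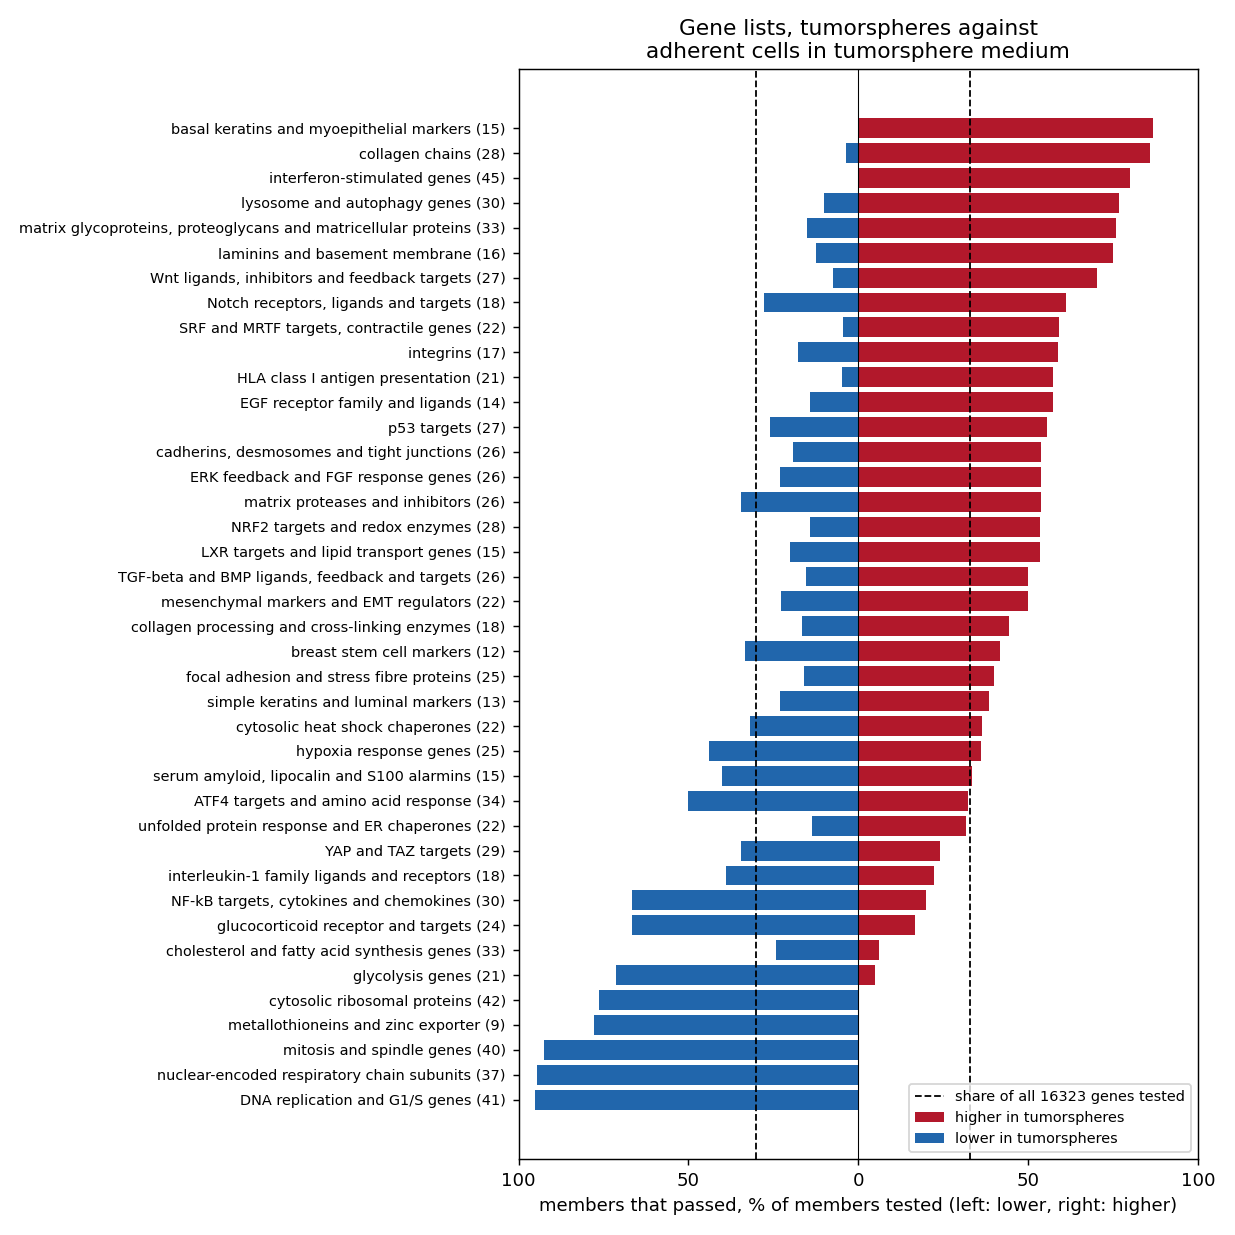
Share of the tested members of each gene list that passed the test, higher in tumorspheres to the right (red) and lower to the left (blue), in % of members tested (number in brackets), for lists with at least 9 tested members. Dashed lines mark the same shares over all 16323 genes tested, 32.8% higher and 30.0% lower.

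Collagen genes rose almost as a block. Of 28 collagen chains tested, 24 rose and 1 fell, with a median log2 fold change of 2.32 against 0.05 over all genes, and the summed level was 21481 to 31158 CPM in tumorspheres and 3703 and 3740 CPM in medium-matched adherent cells. COL1A1, a chain of type I collagen, was at 4045, 3517 and 5437 CPM in tumorspheres and at 108 and 109 CPM in medium-matched adherent cells (log2 fold change 5.32 ± 0.29, adjusted p = 9.7e-11). COL6A1 and COL6A2, chains of the beaded-filament type VI collagen, rose by 4.97 ± 0.20 and 3.66 ± 0.15. COL8A1, a chain of a short network collagen, was the 1 that fell, with 99.0, 92.3 and 117 CPM in tumorspheres and 543 and 574 CPM in medium-matched adherent cells. The enzymes that modify collagen did not move as the chains did: of 18 tested, 8 rose and 3 fell. PLOD2, a lysyl hydroxylase, rose 3.49-fold, whereas P4HA3, a prolyl hydroxylase subunit, and ADAMTS2, the procollagen N-proteinase, fell, with log2 fold changes of -2.61 ± 0.20 and -3.93 ± 0.29.

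Fibronectin was among the most abundant transcripts per length in the spheres. FN1 was at 33589, 33061 and 33970 CPM in tumorspheres, 1572 and 1675 CPM in medium-matched adherent cells, and 8539, 7584 and 8189 CPM in standard-medium cells. Its log2 fold change in tumorspheres over medium-matched adherent cells was 4.37 ± 0.27 (adjusted p = 5.3e-10), and its 3 tumorsphere values lay close together. Among 33 matrix glycoproteins, proteoglycans and matricellular proteins, 25 rose and 5 fell, with a median of 2.98, or 2.94 with the 3 genes at 0 counts in a group set to their bound. VCAN, the large proteoglycan versican, was at 696, 722 and 680 CPM in tumorspheres and at 48.6 and 40.8 CPM in medium-matched adherent cells. DCN, the small proteoglycan decorin, went the other way, with 44.9, 45.6 and 31.2 CPM in tumorspheres against 292 and 323 CPM in medium-matched adherent cells (log2 fold change -2.92 ± 0.17).

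Of 16 laminin and basement membrane genes, 12 rose and 2 fell (median 1.46). LAMA4, a laminin alpha chain found mainly in vessels and mesenchyme, was at 152, 153 and 149 CPM in tumorspheres and at 0.441 and 0.550 CPM in medium-matched adherent cells, a log2 fold change of 8.25 ± 0.25. LAMC1, a gamma chain of many laminins, rose 4.65-fold, and LAMB3, a beta chain of epithelial laminin, fell by 1.38 ± 0.20 on the log2 scale. Matrix proteases and their inhibitors split, with 14 of 26 higher and 9 lower (53.8% and 34.6%, against 32.8% and 30.0% over all genes). PLAU, the urokinase plasminogen activator, was at 409, 415 and 362 CPM in tumorspheres and at 31.3 and 33.1 CPM in medium-matched adherent cells. SERPINE2, an inhibitor of serine proteases, was at 554, 583 and 605 CPM in tumorspheres and at 37.6 and 35.1 CPM in medium-matched adherent cells. PLAU shares 31.1% of its exonic bases with a gene on the opposite strand, and the strand setting of the counting is not given in the sources used here.

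Receptors for matrix changed in part. Of 17 integrin genes, 10 rose and 3 fell (median 0.87). ITGAV, the alpha V chain that binds fibronectin and vitronectin, was at 431, 459 and 492 CPM in tumorspheres and at 132 and 131 CPM in medium-matched adherent cells. ITGA5, the alpha chain of the classical fibronectin receptor, was at 296, 272 and 399 CPM in tumorspheres and at 923 and 982 CPM in medium-matched adherent cells, so the fibronectin receptor chain fell in the libraries in which FN1 rose. ITGB2, a beta chain known from leukocytes, was at 12.5 to 18.9 CPM in tumorspheres and near 0 (0.0367 and 0.157 CPM) in medium-matched adherent cells, with a log2 fold change of 7.25 that became 6.55 without medium-matched adherent replicate A and 8.55 without replicate B.

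Of 25 focal adhesion and stress fibre genes, 10 rose and 4 fell (40.0% and 16.0%, against 32.8% and 30.0% over all genes). Leaving out the 3 libraries that stand apart from their groups in the whole series gave 7 that fell. Those libraries were tumorsphere replicate C and 1 library of each edited pool. VCL, vinculin, was at 557, 550 and 580 CPM in tumorspheres and at 237 and 234 CPM in medium-matched adherent cells. TES, testin, a protein of adhesion plaques, rose 7.75-fold to 2.55, 2.42 and 3.07 CPM in tumorspheres, against 0.294 and 0.393 CPM in medium-matched adherent cells. FLNA, the actin crosslinker filamin A, fell by 0.31 ± 0.09 on the log2 scale, a call that was lost (-0.28) without medium-matched adherent replicate B. Of 22 targets of SRF and MRTF, transcription factors that respond to actin assembly, 13 rose and 1 fell, with a median of 1.16 that was 0.56 without tumorsphere replicate C. Over standard-medium cells, the median of these targets was -0.05 in tumorspheres and -0.64 in medium-matched adherent cells. For the focal adhesion list these medians were -0.03 and -0.50. FHL1 (7.06 ± 0.50) and CALD1 (1.25 ± 0.12) rose, whereas ANKRD1, also a YAP target, had 0.0969, 0.0336 and 0 CPM in tumorspheres, 0.441 and 0.472 CPM in medium-matched adherent cells and 22.3 to 26.9 CPM in standard-medium cells. Its log2 fold change of -3.24 ± 1.16 (adjusted p = 0.021) became -4.45 without tumorsphere replicate A, and its call was lost without any 1 of the other 4 libraries, at -3.29 to -2.71. Of 29 YAP and TAZ targets, 7 rose and 10 fell, below the share of all genes in the upward direction. IGFBP3 rose (5.78 ± 0.36) and GADD45B fell (-2.79 ± 0.11) in that list.

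Among genes of contacts between cells, cadherins led the rises. CDH3, P-cadherin of basal epithelium, was at 23.3, 21.4 and 29.1 CPM in tumorspheres and at 0.110 and 0.0393 CPM in medium-matched adherent cells (log2 fold change 8.27 ± 0.53, and 9.15 without medium-matched adherent replicate A). CDH6 was at 110, 117 and 105 CPM in tumorspheres, 3.42 and 3.46 CPM in medium-matched adherent cells, and 33.5 to 38.3 CPM in standard-medium cells. PERP, a component of desmosomes, rose 5.15-fold. Of 26 cadherin, desmosome and tight junction genes, 14 rose and 5 fell, and 8 fell without tumorsphere replicate C. The median of this list over standard-medium cells was 0.02 in tumorspheres and -0.55 in medium-matched adherent cells.

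Basal epithelial genes had the largest share of rises among the lists with at least 9 tested members. Of 15 basal keratins and myoepithelial markers tested, 13 rose and none fell, with a median log2 fold change of 4.34, or 3.32 with the 1 gene at 0 counts in a group set to its bound. TP63, the p63 transcription factor of basal epithelium, was at 243, 251 and 289 CPM in tumorspheres, 6.36 and 5.74 CPM in medium-matched adherent cells, and 6.41 to 8.87 CPM in standard-medium cells (5.43 ± 0.33, adjusted p = 4.6e-10). Simple keratins and luminal markers were mixed, with 5 of 13 higher and 3 lower (38.5% and 23.1%, against 32.8% and 30.0% over all genes). KRT80 was at 13.2, 12.0 and 12.5 CPM in tumorspheres and at 200 and 207 CPM in medium-matched adherent cells, KRT7 fell by 2.26 ± 0.22, and GATA3, the luminal transcription factor, rose 4.29-fold, to 6.10 to 6.94 CPM in tumorspheres. Of 22 mesenchymal markers and regulators of the epithelial-mesenchymal transition, 11 rose and 5 fell. S100A4 was at 710, 695 and 626 CPM in tumorspheres and at 121 and 113 CPM in medium-matched adherent cells, whereas VIM (0.13 ± 0.13, adjusted p = 0.42) did not pass.

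Inflammatory genes were lower in the spheres in most cases. NF-kB, a transcription factor held in the cytoplasm until cytokines or stress release it, drives many cytokines, chemokines and its own inhibitors. Of 30 NF-kB targets, cytokines and chemokines, 20 fell and 6 rose (median -0.70), and the summed level was 2228 to 2811 CPM in tumorspheres, 6046 and 7066 CPM in medium-matched adherent cells and 1203 to 1271 CPM in standard-medium cells. CCL20, a chemokine for CCR6-bearing lymphocytes and dendritic cells, was at 1.20, 1.31 and 1.01 CPM in tumorspheres and at 43.8 and 52.9 CPM in medium-matched adherent cells. BIRC3, an inhibitor of cell death and of NF-kB-inducing kinase, was at 13.6, 15.0 and 15.1 CPM in tumorspheres and at 76.2 and 79.2 CPM in medium-matched adherent cells. VCAM1, an adhesion molecule for leukocytes, was the leading exception, with 9.69, 10.2 and 18.9 CPM in tumorspheres and 0.184 and 0.236 CPM in medium-matched adherent cells.

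The promoters of 2 members of that list show where an NF-kB-like motif lies in genes that fell. They were chosen by the smallest adjusted p among members that carry it, under the rule given with the processing. IL6, the cytokine interleukin 6, was at 11.2, 11.0 and 7.70 CPM in tumorspheres and at 38.2 and 38.6 CPM in medium-matched adherent cells (log2 fold change -1.94 ± 0.26). TNFAIP3, the feedback inhibitor A20, was at 72.9, 70.0 and 59.9 CPM in tumorspheres and at 141 and 148 CPM in medium-matched adherent cells (-1.09 ± 0.13). Each sequence runs from 250 bases before to 50 bases after the transcription start in RefSeq GRCh38.p14, 5′ to 3′ on the gene's strand, with capitals at the motif GGGANTTTC on either strand; the IL6 promoter is chr7:22726950-22727249 on the plus strand, with the motif beginning 73 bases before the start, and the TNFAIP3 promoter is chr6:137867009-137867308 on the plus strand, with the motif 66 bases before the start.
IL6: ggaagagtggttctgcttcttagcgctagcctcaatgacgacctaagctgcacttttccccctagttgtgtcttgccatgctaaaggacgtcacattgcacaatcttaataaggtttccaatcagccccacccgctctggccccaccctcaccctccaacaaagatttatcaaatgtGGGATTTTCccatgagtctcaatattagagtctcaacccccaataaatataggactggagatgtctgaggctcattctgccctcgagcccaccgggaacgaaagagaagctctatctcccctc
TNFAIP3: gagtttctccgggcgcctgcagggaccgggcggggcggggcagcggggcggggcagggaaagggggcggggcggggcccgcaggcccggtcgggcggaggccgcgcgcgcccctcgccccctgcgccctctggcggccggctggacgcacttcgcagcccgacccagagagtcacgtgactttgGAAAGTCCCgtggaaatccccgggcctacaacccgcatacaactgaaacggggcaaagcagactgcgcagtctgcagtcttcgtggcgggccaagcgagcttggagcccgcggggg
The motif was in 9 of 25 promoters of the list (36%) and in 1.3% of 27305 RefSeq promoters of the same length, which describes the letters and not binding.

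Single genes of the interleukin 1 family and of the acute-phase proteins fell, whereas the lists as a whole moved both ways. IL1B, interleukin 1 beta, was at 6.20, 5.88 and 4.11 CPM in tumorspheres, 49.1 and 62.6 CPM in medium-matched adherent cells, and 0.335 to 0.878 CPM in standard-medium cells. IL18R1, a chain of the interleukin 18 receptor that neighbours IL1RL1 on chromosome 2, was at 4.39, 3.59 and 4.84 CPM in tumorspheres and at 97.5 and 102 CPM in medium-matched adherent cells. IL1RAP, the accessory chain shared by several receptors of the family, rose 2.00-fold, so the receptor chains did not move as one. Of 18 genes of the family, 7 fell and 4 rose, counts near the background. SAA1, a serum amyloid protein, was at 3.00, 3.33 and 3.80 CPM in tumorspheres and at 122 and 136 CPM in medium-matched adherent cells. S100A8, a calcium-binding alarmin, went the other way, with 20.8, 20.8 and 22.3 CPM in tumorspheres and 0.257 and 0.196 CPM in medium-matched adherent cells. Of 15 serum amyloid, lipocalin and S100 genes, 6 fell and 5 rose (40.0% and 33.3%, against 30.0% and 32.8% over all genes). Their median of -1.01 became 0.00 with the 2 genes at 0 counts in a group set to their bound.

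**Figure D4:**
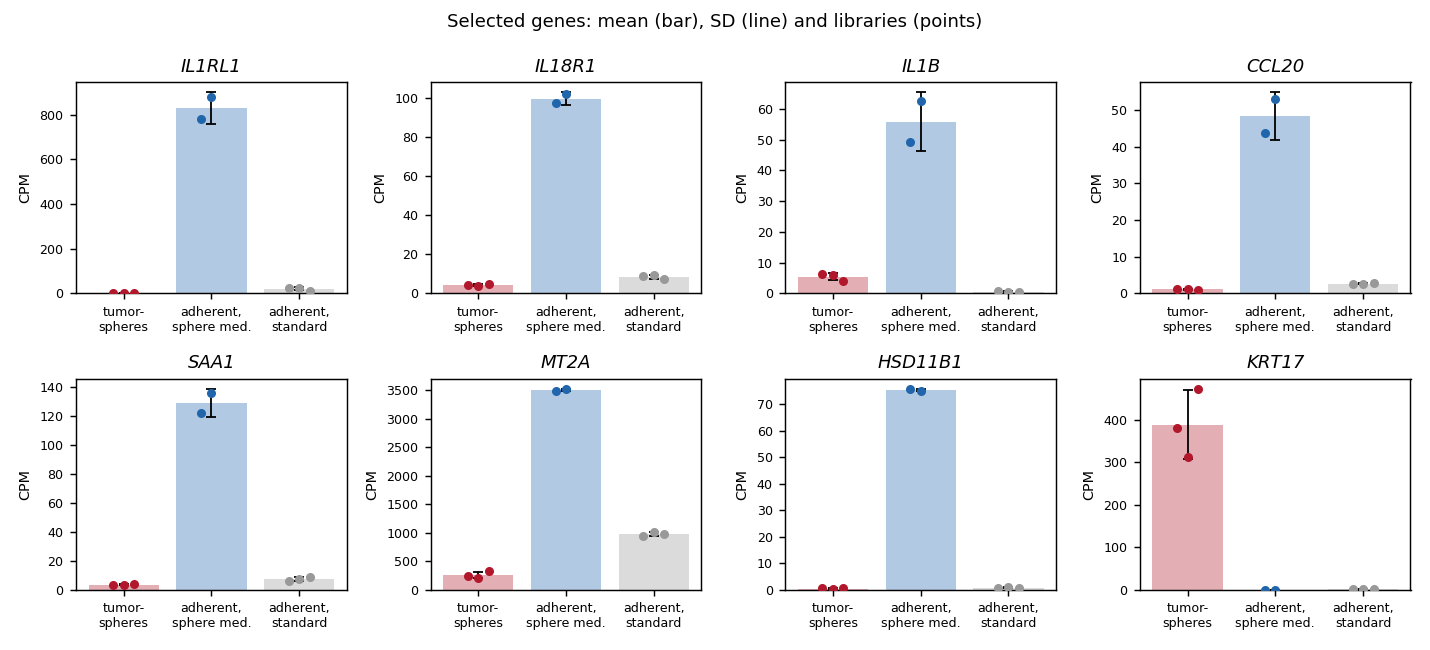
CPM (y axis, linear) of 8 genes in tumorspheres (red), medium-matched adherent cells (blue) and standard-medium adherent cells (grey), with bars for the mean, lines for the SD and points for libraries (n = 3, 2 and 3). IL1RL1, IL18R1, IL1B, CCL20, SAA1, MT2A and HSD11B1 are highest in medium-matched adherent cells, and KRT17 is at 312 to 473 CPM in tumorspheres and under 2 CPM in both adherent groups.

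Genes induced by interferons, which code for antiviral proteins, stood higher in the spheres. Of 45 tested, 36 rose and none fell (median 1.53), and without tumorsphere replicate C 32 rose and 2 fell. OAS1, which senses double-stranded RNA, was at 7.72, 6.95 and 11.2 CPM in tumorspheres and at 0.184 and 0.275 CPM in medium-matched adherent cells. SAMD9L, a growth-restricting antiviral protein, was at 45.8, 49.2 and 42.8 CPM in tumorspheres, 1.76 and 1.45 CPM in medium-matched adherent cells, and 7.15 to 8.04 CPM in standard-medium cells. TRIM22 rose 20.0-fold. The related genes for antigen presentation by HLA class I moved less: of 21, 12 rose and 1 fell (median 0.35). B2M, the invariant light chain, was at 1799, 1881 and 2527 CPM in tumorspheres and at 868 and 930 CPM in medium-matched adherent cells. ERAP1 and ERAP2, which trim peptides, rose 1.81-fold and 2.01-fold, and TAP2, a subunit of the peptide transporter, fell by 0.44 ± 0.12 on the log2 scale. TAP2 shares 32.3% of its exonic bases with another gene on the same strand.

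The promoters of SAMD9 and IFI44L are shown for the same reason, with the core of the interferon-stimulated response element in capitals. SAMD9 was at 51.5, 56.7 and 55.1 CPM in tumorspheres and at 12.3 and 12.4 CPM in medium-matched adherent cells (log2 fold change 2.14 ± 0.24, adjusted p = 5.1e-07). IFI44L was at 53.2, 57.7 and 78.6 CPM in tumorspheres and at 10.9 and 10.1 CPM in medium-matched adherent cells (2.58 ± 0.29). The motif is GAAANNGAA on either strand; the SAMD9 promoter is chr7:93117930-93118229 on the minus strand with 1 match beginning 136 bases before the start, and the IFI44L promoter is chr1:78620198-78620497 on the plus strand with 2 matches.
SAMD9: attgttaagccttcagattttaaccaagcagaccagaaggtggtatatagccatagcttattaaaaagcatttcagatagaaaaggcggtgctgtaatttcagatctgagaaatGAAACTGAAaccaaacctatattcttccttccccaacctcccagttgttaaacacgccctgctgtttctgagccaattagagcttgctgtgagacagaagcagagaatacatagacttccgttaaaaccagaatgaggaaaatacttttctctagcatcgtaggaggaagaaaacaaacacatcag
IFI44L: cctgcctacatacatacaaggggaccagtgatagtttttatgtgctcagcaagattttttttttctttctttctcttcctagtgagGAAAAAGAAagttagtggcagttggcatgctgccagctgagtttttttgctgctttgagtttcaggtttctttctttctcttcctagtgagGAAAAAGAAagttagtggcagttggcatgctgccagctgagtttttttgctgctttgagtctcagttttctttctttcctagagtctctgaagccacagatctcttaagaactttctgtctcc
The motif was in 24 of 35 promoters of the list (68.6%) and in 8.29% of the 27305 promoters.

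Genes of the dividing cell were lower almost without exception. Of 40 mitosis and spindle genes, 37 fell and none rose (median -1.28), and of 41 DNA replication and G1/S genes, 39 fell and none rose (median -1.36). Both counts were 37 and 39 again without tumorsphere replicate C, where the medians were -1.05 and -1.15, since replicate C was the lowest library of both lists. KIF2C, a microtubule depolymerase of the centromere, was at 55.3, 51.5 and 32.8 CPM in tumorspheres and at 159 and 162 CPM in medium-matched adherent cells. PTTG1, securin, and NEK2, a centrosomal kinase, had log2 fold changes of -1.72 ± 0.12 and -1.44 ± 0.12. CDT1, which licenses replication origins, was at 17.1, 13.3 and 12.1 CPM in tumorspheres and at 80.9 and 89.4 CPM in medium-matched adherent cells. RRM1, a subunit of ribonucleotide reductase, was at 117, 121 and 90.2 CPM in tumorspheres and at 327 and 313 CPM in medium-matched adherent cells, and MCM2, of the replicative helicase, fell by 1.97 ± 0.16. Standard-medium cells lay near the medium-matched adherent cells in both lists, at list medians 0.31 to 0.42 (mitosis) and 0.20 to 0.29 (replication) above them on the log2 scale.

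The mitosis promoters of MAD2L1 and CDCA8 are shown with the cell cycle homology region, a motif of late cell cycle genes, in capitals. MAD2L1, a spindle checkpoint protein, was at 26.4, 30.7 and 18.2 CPM in tumorspheres and at 94.3 and 96.2 CPM in medium-matched adherent cells (log2 fold change -1.92 ± 0.17). CDCA8, borealin of the chromosomal passenger complex, was at 33.9, 33.9 and 21.2 CPM in tumorspheres and at 96.1 and 91.3 CPM in medium-matched adherent cells (-1.66 ± 0.16). The motif is TTTGAA on either strand; the MAD2L1 promoter is chr4:120066799-120067098 on the minus strand, with the motif 24 bases after the start, and the CDCA8 promoter is chr1:37692266-37692565 on the plus strand, with the motif 23 bases before the start.
MAD2L1: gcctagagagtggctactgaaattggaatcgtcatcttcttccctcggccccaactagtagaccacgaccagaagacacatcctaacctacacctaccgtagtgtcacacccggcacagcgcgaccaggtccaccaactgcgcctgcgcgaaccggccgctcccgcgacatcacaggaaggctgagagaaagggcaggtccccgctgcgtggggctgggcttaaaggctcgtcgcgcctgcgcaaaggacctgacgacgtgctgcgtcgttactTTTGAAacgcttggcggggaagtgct
CDCA8: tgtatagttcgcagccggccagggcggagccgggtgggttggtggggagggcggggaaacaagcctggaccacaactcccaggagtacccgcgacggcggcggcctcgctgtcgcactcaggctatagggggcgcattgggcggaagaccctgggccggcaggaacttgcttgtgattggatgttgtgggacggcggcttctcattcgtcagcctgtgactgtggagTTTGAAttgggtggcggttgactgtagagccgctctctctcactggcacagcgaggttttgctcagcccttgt
The motif was in 23 of 33 promoters of the list (69.7%) and in 15.4% of the 27305 promoters.

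**Figure D5:**
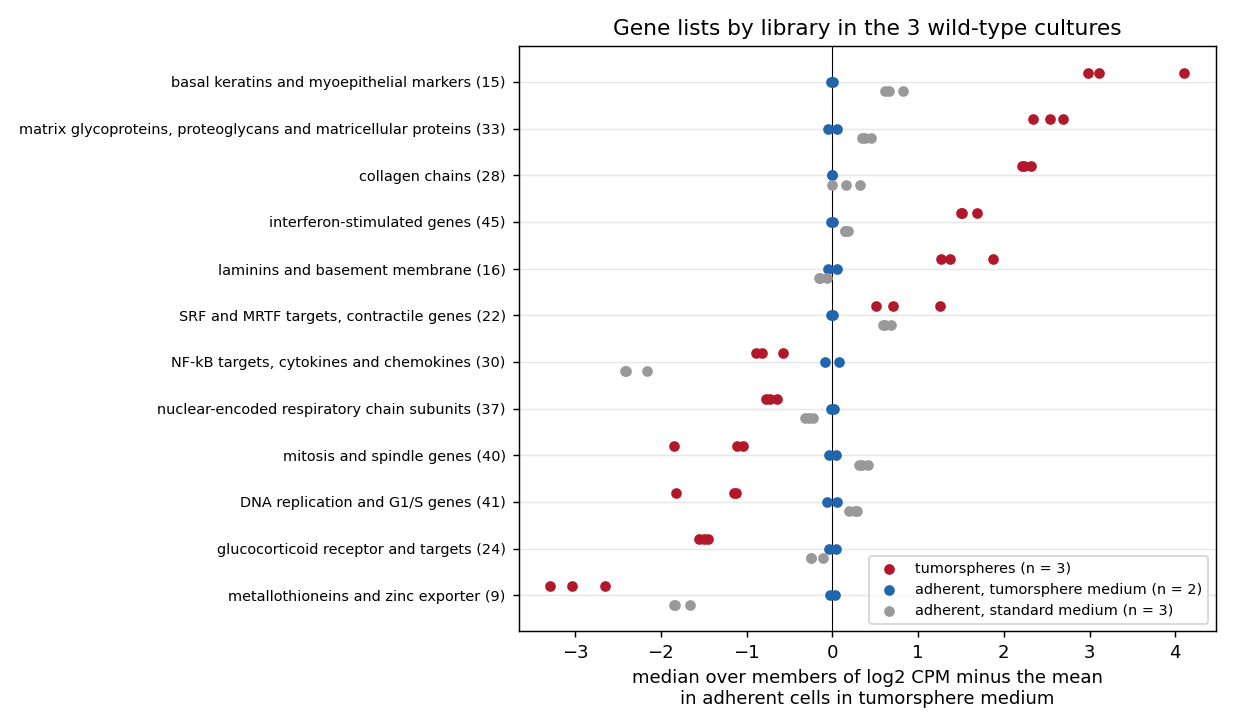
Level of 12 gene lists in each library (x axis): the median over members of log2 CPM minus the mean of the medium-matched adherent cells, for tumorspheres (red), medium-matched adherent cells (blue) and standard-medium adherent cells (grey). Tumorsphere libraries lie to the right of the adherent ones for collagens (2.21 to 2.32) and to the left of them for mitosis genes (-1.85 to -1.04), while for NF-kB targets the tumorspheres (-0.89 to -0.57) lie between the adherent groups.

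Energy metabolism was lower at the RNA level. Of 37 nuclear-encoded subunits of the respiratory chain, 35 fell and none rose (median -0.69). CYC1, cytochrome c1, was at 117, 105 and 99.2 CPM in tumorspheres and at 303 and 318 CPM in medium-matched adherent cells, and ATP5F1B, the beta subunit of ATP synthase, was at 792, 790 and 770 CPM in tumorspheres and at 1662 and 1706 CPM in medium-matched adherent cells. NDUFV1, of complex I, fell by 1.23 ± 0.08 on the log2 scale. Of 21 glycolysis genes, 15 fell and 1 rose (median -0.63). The 1 that rose was SLC2A1, the glucose transporter GLUT1, at 429, 398 and 416 CPM in tumorspheres, 111 and 103 CPM in medium-matched adherent cells, and 282 to 318 CPM in standard-medium cells. LDHB, a lactate dehydrogenase chain, and HK1, a hexokinase, fell (-0.91 ± 0.10 and -0.70 ± 0.08). LDHB shares 33.4% of its exonic bases with another gene on the same strand.

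Hypoxia response genes did not move in 1 direction. Of 25, 9 rose and 11 fell, with a median of 0.15 that was -0.01 without tumorsphere replicate C and -0.02 without medium-matched adherent replicate A. PFKFB3, which makes the activator of phosphofructokinase, was at 247, 244 and 220 CPM in tumorspheres and at 61.4 and 63.7 CPM in medium-matched adherent cells. PDK1, which shuts pyruvate out of mitochondrial oxidation, was at 18.6, 19.2 and 20.1 CPM in tumorspheres and at 55.2 and 54.5 CPM in medium-matched adherent cells. Cytosolic ribosomal protein genes fell by small amounts, 32 of 42 with a median of -0.49, and 41 of 42 without tumorsphere replicate C (median -0.66). RPS7 (-0.84 ± 0.15), RPL4 (-0.61 ± 0.12) and RPSA (-0.56 ± 0.11) led the list.

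Lipid and vesicle genes gave a mixed picture. Of 33 cholesterol and fatty acid synthesis genes, 8 fell and 2 rose, under the background in both directions, with 5 that fell without tumorsphere replicate C, and 15 that fell and 6 that rose without the 3 libraries that stand apart. ACLY, which makes cytosolic acetyl-CoA, and NSDHL, of sterol synthesis, fell (-0.94 ± 0.17 and -0.89 ± 0.17), whereas FADS2, a fatty acid desaturase, rose 2.24-fold. Among 15 targets of LXR, a sterol-sensing receptor, and other lipid transport genes, 8 rose and 3 fell. APOE, apolipoprotein E, was at 1071, 908 and 2618 CPM in tumorspheres, 10.2 and 11.0 CPM in medium-matched adherent cells, and 2.78 to 4.28 CPM in standard-medium cells (7.17 ± 0.71, and 6.55 without tumorsphere replicate C). CD36, a receptor for fatty acids and lipoproteins, was at 20.0, 22.3 and 29.2 CPM in tumorspheres and at 0.220 and 0.196 CPM in medium-matched adherent cells. SCARB1, the receptor of high-density lipoprotein, fell by 0.95 ± 0.13 and NPC2, which carries cholesterol in lysosomes, rose 2.16-fold. Lysosome and autophagy genes were more uniform, with 23 of 30 higher and 3 lower (median 0.93). LAMP2, of the lysosomal membrane, was at 569, 610 and 593 CPM in tumorspheres and at 273 and 271 CPM in medium-matched adherent cells, CTSS, a cathepsin, rose 5.87-fold, and GLA, alpha-galactosidase, fell by 0.56 ± 0.13.

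Stress programmes differed from one another. Of 28 NRF2 targets and redox enzymes, 15 rose and 4 fell. CAT, catalase, was at 231, 236 and 237 CPM in tumorspheres and at 38.0 and 37.9 CPM in medium-matched adherent cells. NQO1, a quinone reductase and a classical NRF2 target, was at 1984, 2051 and 1156 CPM in tumorspheres and at 315 and 328 CPM in medium-matched adherent cells, and PRDX6, a peroxiredoxin, fell by 0.57 ± 0.10. SLC7A11, the cystine transporter that both NRF2 and ATF4 regulate, was at 714, 787 and 418 CPM in tumorspheres and at 73.4 and 80.4 CPM in medium-matched adherent cells. The list of ATF4 targets held 17 genes that fell and 11 that rose, of 34 (50.0% and 32.4%, against 30.0% and 32.8% over all genes). ASNS, asparagine synthetase, was at 14.8, 17.8 and 13.3 CPM in tumorspheres and at 102 and 124 CPM in medium-matched adherent cells. SHMT2 and GPT2, of serine and alanine metabolism, each had a log2 fold change of -1.16 ± 0.09. ASNS shares 44.6% of its exonic bases with another gene on the same strand. Of 22 unfolded protein response genes, 7 rose and 3 fell, 31.8% and 13.6% against 32.8% and 30.0% over all genes. SEL1L (0.79 ± 0.09) and HERPUD1 (0.72 ± 0.14) led that list, with HYOU1 lower (-0.56 ± 0.11). Of 22 cytosolic heat shock chaperones, 8 rose and 7 fell (36.4% and 31.8%), counts near the background. HSPA1A, a stress-induced chaperone with a near-identical copy, rose 2.84-fold, while HSPD1 (-1.31 ± 0.14) and FKBP4 (-1.38 ± 0.16) fell.

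Steroid-linked genes were lower. The glucocorticoid receptor switches on metallothioneins, GADD45B and many other genes. The standard medium held hydrocortisone, but both compared groups ended their culture in tumorsphere medium. Any part of hydrocortisone in these differences was not tested. Of 24 tested genes of the receptor and its targets, 16 fell and 4 rose (median -1.51), and the median of the list by library was -1.55 to -1.45 in tumorspheres relative to medium-matched adherent cells. HSD11B1, which regenerates cortisol from cortisone, was at 0.678, 0.202 and 0.488 CPM in tumorspheres, 75.6 and 74.9 CPM in medium-matched adherent cells, and 0.586 to 1.01 CPM in standard-medium cells (-7.35 ± 0.32, adjusted p = 5.9e-12). FAM107A, a target known from glucocorticoid-treated tissue, rose against the trend, with 13.1, 12.0 and 10.6 CPM in tumorspheres and 0.147 and 0.157 CPM in medium-matched adherent cells. Metallothioneins, small metal-binding proteins, fell in 7 of 9 tested genes of their list (median -3.89), and none rose. MT2A was at 237, 214 and 321 CPM in tumorspheres, 3488 and 3520 CPM in medium-matched adherent cells, and 942, 1009 and 974 CPM in standard-medium cells. MT1X (-4.16 ± 0.20) and MT1A (-3.89 ± 0.35, and -4.48 without tumorsphere replicate C) fell, and the metallothionein 1 genes resemble one another enough that reads may be shared among them.

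Growth factor pathways were compared with EGF and basic FGF present in both groups. ERK feedback genes and other FGF-responsive genes were higher in 14 cases and lower in 6, of 26. EGR2, an immediate early transcription factor, was at 22.2, 19.3 and 26.4 CPM in tumorspheres and at 0.735 and 1.10 CPM in medium-matched adherent cells, and ETV1 rose 3.69-fold. DUSP1, a phosphatase of MAP kinases, averaged 19.8 ± 4.78 CPM in tumorspheres (SD, n = 3) and 165 ± 13.9 CPM in medium-matched adherent cells (SD, n = 2). Of 14 EGF receptor family and ligand genes, 8 rose and 2 fell, with a median of 1.77, or 1.42 with the 1 gene at 0 counts in a group set to its bound. LRIG1 and ERRFI1, which both restrain EGF receptors, rose 11.4-fold and 2.62-fold, TGFA rose 4.92-fold (1.71 to 2.02 CPM in tumorspheres), and HBEGF fell by 1.76 ± 0.26. MYC, a growth-promoting transcription factor in the list of breast stem cell markers, was at 215, 197 and 264 CPM in tumorspheres, 1079 and 1144 CPM in medium-matched adherent cells, and 369 to 464 CPM in standard-medium cells. In that list of 12 tested genes 5 rose and 4 fell (41.7% and 33.3%, against 32.8% and 30.0% over all genes). Without the 3 libraries that stand apart, 8 rose. SOX9 rose 18.7-fold. ALDH1A3 fell by 4.53 ± 0.38 at levels of 0.134 CPM or less in tumorspheres and 2.02 and 2.28 CPM in medium-matched adherent cells.

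Wnt genes rose in most cases: of 27 ligands, inhibitors and feedback targets, 19 rose and 2 fell (median 2.03). Beside LGR6, its relative LGR4 was at 95.6, 102 and 89.3 CPM in tumorspheres and at 13.6 and 14.8 CPM in medium-matched adherent cells, and the ligand WNT9A was at 16.5, 15.6 and 11.5 CPM in tumorspheres and at 2.46 and 2.36 CPM in medium-matched adherent cells. NKD2, an inhibitor of Dishevelled, fell by 4.58 ± 0.48. Of 18 Notch receptors, ligands and targets, 11 rose and 5 fell (median 1.42). The ligand JAG1 was at 205, 205 and 147 CPM in tumorspheres and at 26.1 and 26.5 CPM in medium-matched adherent cells. The target genes HEYL and HEY1 parted: HEYL had 10.9, 10.7 and 17.7 CPM in tumorspheres and 0 in both medium-matched adherent libraries, at least 230-fold higher, while HEY1 had 5.65, 5.51 and 5.33 CPM in tumorspheres and 26.5 and 29.5 CPM in medium-matched adherent cells.

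Of 26 genes of the TGF-beta and BMP pathways, 13 rose and 4 fell. TGFBR2, the type II TGF-beta receptor, was at 801, 825 and 754 CPM in tumorspheres and at 180 and 164 CPM in medium-matched adherent cells. SMAD7, an inhibitor induced by the pathway, rose 6.12-fold, and BMP4 was at 34.6, 35.3 and 27.4 CPM in tumorspheres, 0.404 and 0.314 CPM in medium-matched adherent cells, and 9.35 to 14.8 CPM in standard-medium cells. FSTL3, a secreted binder of activins, fell by 2.24 ± 0.18. Of 27 p53 targets, 15 rose and 7 fell. CDKN1A, the cell cycle inhibitor p21, was at 201, 188 and 276 CPM in tumorspheres and at 37.6 and 34.5 CPM in medium-matched adherent cells, and TP53INP1 was at 27.1, 30.7 and 47.5 CPM in tumorspheres and at 0.331 and 0.275 CPM in medium-matched adherent cells.

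Levels between genes can be compared only per length. By RPKM (reads per kilobase of the deposited gene length, scaled to library size), FN1 and FTL, the ferritin light chain, had the highest mean levels in tumorspheres. FN1 was at 3735, 3676 and 3777 RPKM in tumorspheres and at 175 and 186 RPKM in medium-matched adherent cells. FTL was at 4113, 3845 and 2922 RPKM in tumorspheres and at 2537 and 2722 RPKM in medium-matched adherent cells, so FTL lay above FN1 in tumorsphere replicates A and B and below it in C. In medium-matched adherent cells MT2A was the most abundant, at 614 RPKM in tumorspheres against 8363 RPKM in medium-matched adherent cells. ACTB, VIM, TMSB10 and FTH1, also among the most abundant, did not pass (adjusted p = 0.34, 0.42, 0.43 and 0.37). FTH1 shares 62.4% of its exonic bases with a gene on the opposite strand. TMSB10 passed at a log2 fold change of -0.21 without tumorsphere replicate C and at -0.22 both with the replicate block in the 5 libraries and without the libraries that stand apart, ACTB at -0.22 with that block, and FTH1 at -0.32 with that block and at -0.33 without the libraries that stand apart. Of the others, TIMP1, an inhibitor of metalloproteinases, fell by 0.76 ± 0.22.

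NNMT, the nicotinamide methyltransferase edited in the other cells of the series, was at 85.7, 79.5 and 130 CPM in tumorspheres, 226 and 247 CPM in medium-matched adherent cells, and 120, 128 and 102 CPM in standard-medium cells. It fell by 1.26 ± 0.19 on the log2 scale (adjusted p = 1.6e-05) in tumorspheres against medium-matched adherent cells, and the tumorsphere range overlapped that of standard-medium cells.

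The values in standard-medium cells place each change, with the limit that the comparisons share libraries. For IL1RL1 the log2 fold change was -11.41 in tumorspheres over medium-matched adherent cells, 5.36 in medium-matched adherent over standard-medium cells, and -6.05 in tumorspheres over standard-medium cells. For TFPI2 the same 3 values were -8.26, 8.76 and 0.50, and for SERPINA3 -5.38, 5.40 and 0.01. In these 2 genes the spheres lay close to standard-medium cells and the medium-matched adherent cells stood out. For AOX1 the values were -6.01, -0.13 and -6.14, for COL6A1 4.97, 0.34 and 5.31, and for TP63 5.43, -0.27 and 5.16, so here the spheres stood out from both adherent cultures. PLOD2 (1.80, -1.84 and -0.03), CALD1 (1.25, -1.18 and 0.06) and PARVA, an actin-binding adhesion protein (1.12, -1.19 and -0.07), were lowest in medium-matched adherent cells.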

How the data were processed

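The authors made stranded TruSeq mRNA libraries, per the labels' protocols, and STAR and hg38 are named in the submitters' processing notes. The deposited table holds whole-number read counts per Entrez gene, not normalized. The counting tool, its strand setting and the annotation are not given in the sources used here. Gene length, deposited beside the counts, was used for RPKM only. Symbols were matched for 27740 of 27864 IDs (RefSeq GRCh38.p14).

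All 20 libraries were fitted with edgeR 4.0.16 in R 4.3.3: filterByExpr, TMM, 1 coefficient per group, 13 residual degrees of freedom, quasi-likelihood test and Benjamini-Hochberg adjustment over 16323 genes. CPM are TMM-scaled, log2 CPM used a prior count of 2, and SE is the log2 fold change over the root of F. Of the genes that passed, 10113 had no overlap of CPM between the groups. The share without overlap over all genes tested is not given, so this count has no background and is not read as support. Gene lists were described by counts and medians, without a test. Members, lists and rules were chosen with earlier results of these data known. Named genes are the 12 largest rises and falls (mean log2 CPM of at least 2, no overlap), in each list the 3 members with the smallest adjusted p and the leading opposite member, NNMT, and the 6 genes with the highest RPKM per group. Some results are not reported here. Promoters shown are those of the 2 members with the smallest adjusted p in their list that hold the motif. Counts of list members without tumorsphere replicate C or without the libraries that stand apart were added after seeing the data. Counting intervals (95%, Poisson) and the floor of 3 counts cover counting error only. Replicate A and B of either group differed by more than sampling noise (chi-square per degree of freedom 5.14 and 3.80), so all 5 were kept as separate samples. The fit was tested on simulated data. Alternatives used DESeq2 1.42.0, limma-voom 3.58.1, other scalings and filters, fewer libraries and a replicate block.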

Additional observations from a re-analysis of the deposited data

How the results depend on the processing

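Of 10254 genes that passed (5358 higher, 4896 lower), 4979 also changed at least 2-fold (3243 higher, 1736 lower). Leaving out 1 library at a time gave 8418 to 10146 genes (4364 to 5330 higher, 4008 to 4816 lower). An adjusted p under 0.01 gave 8334 genes (4328 higher, 4006 lower), and the other settings gave 9453 to 11875. Under all of these, every gene shared with the main calls kept its direction: 9954 were shared with DESeq2, which called 10263. Whether replicate letters pair libraries across the groups could not be decided. Deviations of same-letter libraries correlated at r = 0.196 for A and -0.262 for B. The deviations of the 2 medium-matched adherent libraries mirror each other, and tumorsphere replicates A and B deviate the same way. Opposite signs were therefore bound to arise. A fit with the replicate block gave 10251 genes over all libraries and 11875 over the 5 libraries alone. The labels do not say that the letters mark a shared culture, so the block is given only as a setting. No scaling moved the median of all genes by more than 0.1.

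Among the named genes, VIM turned to -0.05 with the replicate block in the 5 libraries, -0.04 without tumorsphere replicate C and -0.05 without the libraries that stand apart, and TUBB3, a tubulin, turned to 0.01 without tumorsphere replicate B; neither passed as reported. Over the fits without 1 library, VIM ranged from -0.04 to 0.21 and TUBB3 from -0.10 to 0.01, the hypoxia median from -0.02 to 0.17 and the serum amyloid median from -1.23 to 0.00. The hypoxia median turned to -0.01 with the replicate block in the 5 libraries, -0.01 without tumorsphere replicate C, -0.02 without medium-matched adherent replicate A and -0.02 without the libraries that stand apart. The serum amyloid median was 0.00 without medium-matched adherent replicate B. The median of the 5 leukocyte markers tested was 1.33 in the compared groups alone, 1.34 with the block and 1.33 in the wt libraries alone, as fewer genes passed the filter there. The causes of the other changes were not tested. With 2 medium-matched adherent libraries, genes near 0 counts there have no reliable fold.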
